A study of Homo sapiens with 2 samples.

Results

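Telomerase and shelterin are represented here by 7 genes, TERT, TERF1, TERF2, TERF2IP, TINF2, POT1 and ACD, each found by its symbol in both deposited gene tables of 36601 genes. Their transcripts were counted as UMIs, one per captured RNA molecule, in 2 libraries of naive H9 cells. H9 is an established line of human embryonic stem cells. The ASO-L1 library came from cells transfected with 25 nM of a fluorescein-labelled oligonucleotide antisense to LINE1 RNA, and the SO-L1 library from cells given the same dose of its sense counterpart. Both groups were kept in RSeT, a naive-state medium, to which 10 nM DZNep and 5 nM TSA had been added. Both also received 0.7 µM Trans-ISRIB, 5 µM emricasan and 10 µM Y-27632, which were removed after 24 hours. At 48 hours 100000 dye-positive cells of each group were sorted, so cells without the oligonucleotide were left out of both, with 12000 of them as the aim for each library, using 10x 3' v3 reagents and a depth above 65000 reads a cell. Each group is 1 library of 1 cell line, so the differences below come without replicates and without a test. Intervals are 95% intervals, exact Poisson for levels and Clopper-Pearson for ratios and shares, and they cover counting error only.

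Telomerase adds telomere repeats to chromosome ends with a reverse transcriptase, TERT, that copies an RNA template. Shelterin is the protein complex that sits on those repeats and hides them from DNA repair. TERF1 and TERF2 bind the double-stranded repeat, TERF2IP (RAP1) binds TERF2, POT1 binds the single-stranded end, and ACD (TPP1) joins POT1 to TINF2, which bridges to TERF1 and TERF2. Pluripotent stem cells are known for active telomerase and for high TERF1, and ZSCAN4, a zinc finger gene of the 8-cell (8C) stage, is known from mouse embryonic stem cells for telomere lengthening by recombination.

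The 7 genes lie apart in the genome (GRCh38, GENCODE 29). TERT (ENSG00000164362) is on chromosome 5 at 1253147 to 1295069, minus strand, TERF1 (ENSG00000147601) on chromosome 8 at 73008864 to 73048122, plus strand, and POT1 (ENSG00000128513) on chromosome 7 at 124822386 to 124929983, minus strand. TINF2 (ENSG00000092330) is on chromosome 14 at 24239643 to 24242674, minus strand. Chromosome 16 carries the other three, ACD (ENSG00000102977) at 67657512 to 67660815 and TERF2 (ENSG00000132604) at 69355561 to 69408571, both minus strand, and TERF2IP (ENSG00000166848) at 75647786 to 75761872, plus strand. All are protein coding. TERF1 has 5 annotated pseudogenes, and reads that match gene and copy alike make its level less certain. The annotated span of TERF2IP, through its transcript TERF2IP-202 from 75656207 to 75761872, encloses DUXB and CPHXL, homeobox genes of the 8C stage, on the opposite strand, and its start overlaps KARS. ACD overlaps CARMIL2 and POT1 overlaps POT1-AS1, both on the opposite strand. TERF2 overlaps AC026464.3, a protein-coding gene at 69335091 to 69356306 on the same strand, which is not among the deposited genes. Neither the use of strand nor of intronic reads in the counting is stated in the labels, and values of TERF2IP are therefore also given by whether a cell had DUXB or CPHXL UMIs.

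The analysed cells had 1000 or more detected genes and a share of mitochondrial (MT-) UMIs under 20%. This left 9084 of 11659 ASO-L1 barcodes and 6553 of 13070 SO-L1 barcodes, with medians of 53959.5 UMIs per cell in ASO-L1 and 42314 in SO-L1. Of the kept cells, 2531 in ASO-L1 (27.9%) and 1857 in SO-L1 (28.3%) had an MT- share below 2%. The other 6553 ASO-L1 cells and 4696 SO-L1 cells are the cells at 2% or more. Cells with at least 1 ZSCAN4 UMI, called ZSCAN4 cells below, numbered 165 in ASO-L1 and 20 in SO-L1 below 2% MT-, and 96 in ASO-L1 and 8 in SO-L1 at 2% or more. Of the 165, 97 held a single ZSCAN4 UMI. In barcodes under 1000 genes whose sequence was in 1 library only, ZSCAN4 stood at 9.68 CPM (9 UMIs) in ASO-L1 and had 0 UMIs in SO-L1. The 1254 such barcodes of ASO-L1 had a median of 2256.5 UMIs and a total of 930009 UMIs outside MT- genes. The 1005 of SO-L1 had a median of 2182 UMIs and a total of 596042 outside MT- genes. Many of their UMIs were thus of MT- genes, and free RNA was not told apart from damaged cells in them. The part of free RNA in cells with 1 UMI was not tested. All 7 listed pluripotency markers (POU5F1, SOX2, NANOG, LIN28A, TDGF1, DPPA4 and L1TD1) were measured in both libraries, at a summed 2758 CPM in ASO-L1 and 3033 CPM in SO-L1. Of the barcode sequences, 6105 were present in both libraries. In SO-L1, 5306 of them had fewer UMIs than in ASO-L1, by a median factor of 74.4, and 264 of these passed the cell filter. In ASO-L1, 799 had fewer UMIs than in SO-L1 and 10 of these passed. None of the 261 ASO-L1 ZSCAN4 cells and 2 of the 28 SO-L1 ZSCAN4 cells were among them, and ratios without these barcodes are given beside the first comparison.

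RefSeq promoters on GRCh38.p14, from 250 bases before to 50 after a start, were found for 5 of the 7 genes (TERT, TERF2IP, TINF2, POT1 and ACD). They were searched on both strands for the E-box CACGTG, the GC box GGGCGG, the telomere repeat TTAGGG and the homeobox motif TAATCC. Each of the 5 held at least 1 GC box, which 45.0% of all 35116 RefSeq promoters hold. The E-box, in 7.26% of all promoters, was found once, in that of TERT. The telomere repeat (9.05% of all) and the homeobox motif (6.36%) had no match in the windows of these 5 genes. The promoters of TERF2IP, at chr16:75647523-75647822 on the plus strand, and of POT1, at chr7:124929776-124930075 on the minus strand, are shown. They were chosen because TERF2IP was higher (ratio 2.21) and POT1 lower in ASO-L1 than in SO-L1 cells below 2% MT-. The POT1 difference was less than 1.5-fold (ratio 0.779). For TERF1, at a ratio of 0.332 there, no promoter was found. Capitals mark GC boxes, 1 in TERF2IP and 2 in POT1. KARS is annotated across the TERF2IP window and POT1-AS1 across a part of the POT1 window.
TERF2IP promoter: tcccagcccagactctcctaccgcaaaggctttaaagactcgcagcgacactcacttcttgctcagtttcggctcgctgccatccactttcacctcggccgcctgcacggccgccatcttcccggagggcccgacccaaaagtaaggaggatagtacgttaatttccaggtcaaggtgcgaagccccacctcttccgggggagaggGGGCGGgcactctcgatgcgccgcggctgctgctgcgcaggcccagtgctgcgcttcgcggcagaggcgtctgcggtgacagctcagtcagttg
POT1 promoter: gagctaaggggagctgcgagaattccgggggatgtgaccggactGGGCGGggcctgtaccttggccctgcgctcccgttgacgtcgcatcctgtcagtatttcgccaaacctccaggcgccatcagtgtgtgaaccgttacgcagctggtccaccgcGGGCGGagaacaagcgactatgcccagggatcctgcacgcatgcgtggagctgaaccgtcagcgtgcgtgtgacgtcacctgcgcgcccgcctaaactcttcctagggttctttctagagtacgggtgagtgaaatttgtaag

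Across all kept cells, TERF1 was lower and TERF2IP higher in ASO-L1, and the other 5 genes differed by less. Levels are in CPM, UMIs of a gene per 1000000 UMIs of the group. TERF1 stood at 514 CPM in ASO-L1 and 801 CPM in SO-L1, a ratio of 0.641 (0.638 to 0.645). TERF2IP stood at 47.9 CPM in ASO-L1 and 26.4 CPM in SO-L1, a ratio of 1.82 (1.77 to 1.87). They were the only members at least 1.5-fold apart, 1 higher and 1 lower of 7, where among 22863 measured genes 16.6% were higher and 17.1% lower by that margin. The other ratios were 1.17 for TERF2, 0.988 for POT1, 0.978 for TINF2, 0.891 for TERT and 0.817 for ACD. The median log2 ratio of the 7 was −0.03, beside −0.02 for all genes measured. With barcodes that had more UMIs in the other library left out, the ratios were 0.641 for TERF1 and 1.82 for TERF2IP over all kept cells, and 0.331 for TERF1 and 2.21 for TERF2IP below 2% MT-.

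In the comparisons by MT- class and by ZSCAN4, MT- genes were left out of the total behind CPM. TERF1, a repeat binder, held 218 CPM in ASO-L1 and 658 CPM in SO-L1 below 2% MT-, a ratio of 0.332 (0.326 to 0.337). In cells at 2% or more it held 651 CPM in ASO-L1 and 926 CPM in SO-L1, a ratio of 0.703 (0.699 to 0.707). TERF1 was thus lowest in ASO-L1 cells below 2%, highest in SO-L1 cells at 2% or more, and overlapped in its intervals between SO-L1 cells below 2% and ASO-L1 cells at 2% or more. TERF2IP, the TERF2 partner, held 76.8 CPM in ASO-L1 and 34.7 CPM in SO-L1 below 2% MT-, a ratio of 2.21 (2.11 to 2.32). Among cells at 2% or more it held 42.5 CPM in ASO-L1 and 26.5 CPM in SO-L1, a ratio of 1.61 (1.56 to 1.66). Its order was the reverse of that of TERF1 at both ends, and none of its 4 intervals overlapped. Below 2% MT-, 1 member of 7 was at least 1.5-fold higher (22.9% of all genes) and 1 lower (24.9%), and at 2% or more 1 was higher (12.2%) and none lower (15.7%).

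**Figure D1:**
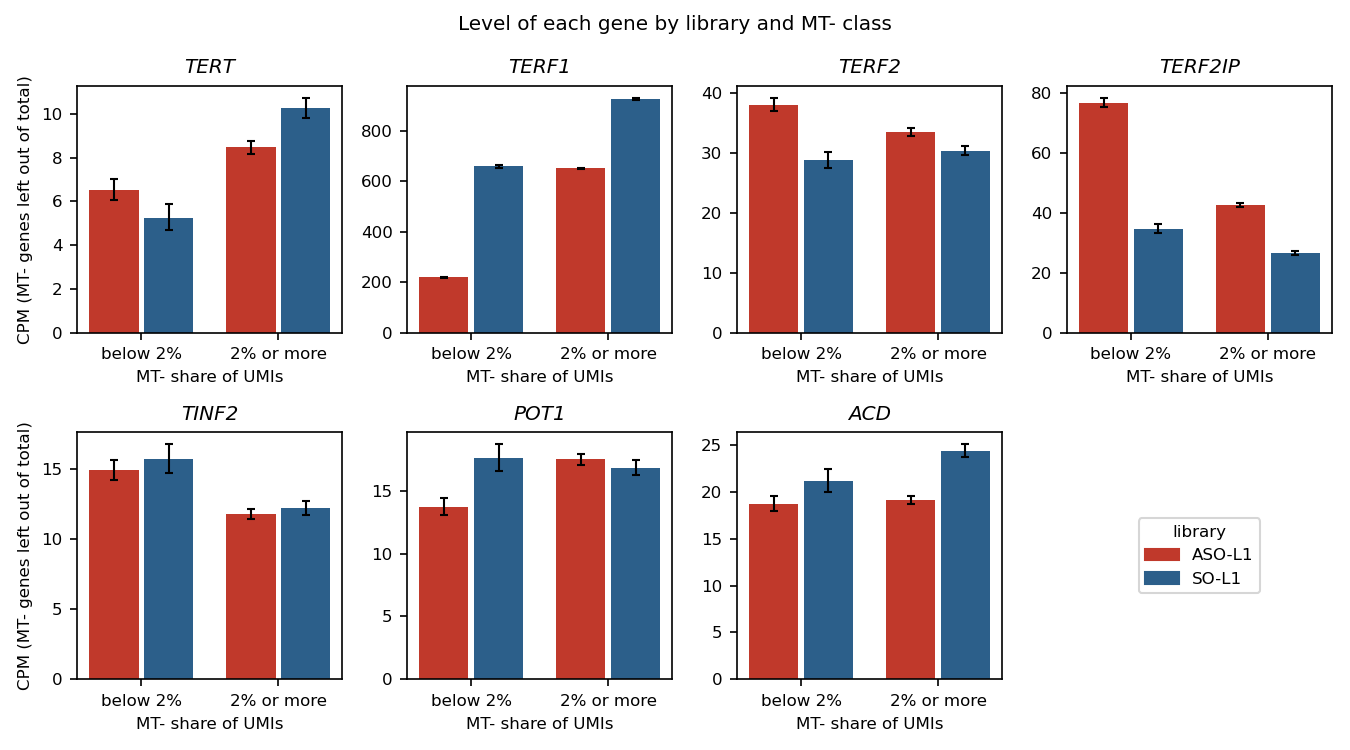
Level of each of the 7 genes in CPM, by library (ASO-L1 red, SO-L1 blue) and MT- class, with exact Poisson 95% intervals as bars on each column. TERF1 is lowest in ASO-L1 cells below 2% MT- at 218 CPM, where TERF2IP is highest at 76.8 CPM.

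TERT, the catalytic subunit, was sparse. Below 2% MT- it held 6.54 CPM in ASO-L1 (747 UMIs) and 5.27 CPM in SO-L1 (311 UMIs), a ratio of 1.24 (1.09 to 1.42). At 2% or more it held 8.48 CPM in ASO-L1 and 10.3 CPM in SO-L1, a ratio of 0.824 (0.779 to 0.873). The ratio lay above 1 in one class and below 1 in the other, and the difference between the classes was not tested. TERF2, the other repeat binder, held 38.1 CPM in ASO-L1 and 28.8 CPM in SO-L1 below 2% MT-, a ratio of 1.32 (1.25 to 1.40), and its ratio was 1.10 (1.07 to 1.14) at 2% or more. The intervals of the SO-L1 classes overlapped for TERF2.

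Among the proteins that link the single-stranded end to the rest, POT1 held 13.7 CPM in ASO-L1 and 17.6 CPM in SO-L1 below 2% MT-, a ratio of 0.779 (0.720 to 0.844). In the other class POT1 held 17.5 CPM in ASO-L1 and 16.9 CPM in SO-L1, with overlapping intervals. ACD held 18.7 CPM in ASO-L1 and 21.2 CPM in SO-L1 below 2%, and 19.1 CPM in ASO-L1 and 24.4 CPM in SO-L1 at 2% or more, a ratio of 0.784 (0.756 to 0.814) in the second class. ACD was lower in ASO-L1 in both classes, by less than 1.5-fold. TINF2 held 15 CPM in ASO-L1 and 15.7 CPM in SO-L1 below 2%, and 11.8 CPM in ASO-L1 and 12.2 CPM in SO-L1 at 2% or more. Its intervals overlapped between the libraries in either class.

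Within a library, cells below 2% MT- were compared with the cells at 2% or more. In ASO-L1, TERF1 was 0.335 times (0.331 to 0.340) and TERF2IP 1.81 times (1.76 to 1.85) the level of the other cells. These were the 2 members at least 1.5-fold apart, where 27.1% of 21455 genes were at least 1.5-fold higher and 12.9% lower. In SO-L1 the same ratios were 0.711 (0.703 to 0.719) for TERF1 and 1.31 (1.25 to 1.38) for TERF2IP, and TERT, at 5.27 against 10.3 CPM, was the 1 member past 1.5-fold, with a ratio of 0.512 (0.453 to 0.577). In SO-L1, 6.46% of 19452 genes were lower by that margin. TERT was 0.771 times (0.710 to 0.835) in ASO-L1. TINF2 was higher below 2% in both libraries, by 1.27-fold (1.20 to 1.34) in ASO-L1 and 1.29-fold (1.19 to 1.39) in SO-L1. POT1 was 0.784 times (0.741 to 0.829) in ASO-L1 and 1.04 times (0.973 to 1.12) in SO-L1.

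Pluripotency markers were also lower in the ASO-L1 cells where TERF1 was lowest. In ASO-L1 all 7 (all genes 12.9%) were at least 1.5-fold lower below 2% MT- than in the other cells. Their summed levels were 1715 CPM below 2% and 3318 CPM in the others, with a median log2 ratio of −1.06. In SO-L1 none of the 7 was (all genes 6.46%), with summed levels of 2709 CPM below 2% and 3439 CPM in the others and a median of −0.40. Between the libraries below 2% MT-, 5 of the 7 (all genes 24.9%) were at least 1.5-fold lower in ASO-L1. All 7 measured markers of the 8C list, which includes ZSCAN4, were at least 1.5-fold higher there in ASO-L1 (all genes 22.9%). The 8C list summed to 377 CPM in ASO-L1 and 55.4 CPM in SO-L1, where 1 marker was at 0. Within ASO-L1 all 7 measured were also higher below 2% (all genes 27.1%), where the other cells summed to 38.8 CPM. Of 5 naive-state markers, 3 (all genes 22.9%) were higher in ASO-L1 than in SO-L1 below 2% and none (all genes 24.9%) lower. They summed to 282 CPM in ASO-L1 and 248 CPM in SO-L1. Within ASO-L1, 4 (all genes 27.1%) were higher below 2% and 1 (all genes 12.9%) lower, at 282 CPM below 2% and 362 CPM in the others. Cell-cycle markers also moved. Below 2% MT-, 7 of 7 G2 and M phase markers (all genes 22.9%) were higher in ASO-L1 than in SO-L1 by 1.5-fold or more. They summed to 1207 CPM in ASO-L1 and 506 CPM in SO-L1. Of 7 S phase markers, 5 (all genes 6.46%) were at least 1.5-fold lower in SO-L1 cells below 2% than in the other SO-L1 cells. They summed to 468 CPM below 2% and 789 CPM in the others. Of 7 G2 and M phase markers, 4 (all genes 6.46%) were also lower in that comparison, at 506 and 781 CPM. Between the libraries below 2%, no S phase marker (all genes 22.9%) was higher and 1 (all genes 24.9%) was lower. Their sums there were 503 CPM in ASO-L1 and 468 CPM in SO-L1. In ASO-L1 below 2%, 2 of 7 G2 and M phase markers (all genes 27.1%) were higher than in the others. Of 7 S phase markers, 2 (all genes 12.9%) were lower. None of the markers in these 2 cell-cycle lists or the pluripotency list was at 0 in a group. Of 7 trophectoderm and amnion markers, 5 of the 6 measured (all genes 22.9%) were higher by 1.5-fold or more in ASO-L1 than in SO-L1 below 2% MT-. The list summed to 615 CPM in ASO-L1 and 323 CPM in SO-L1. Fibroblast markers summed to 104 CPM in ASO-L1 and 100.0 CPM in SO-L1 there, with DCN and LUM at 2 UMIs each in ASO-L1 and 0 in SO-L1. Of 3 fibroblast markers measured, 1 (all genes 22.9%) was at least 1.5-fold higher and none (all genes 24.9%) lower. Neural markers summed to 654 CPM in ASO-L1 and 557 CPM in SO-L1, with SOX1 at 7 UMIs in ASO-L1 and 0 in SO-L1. Of 4 neural markers measured, 2 (all genes 22.9%) were at least 1.5-fold higher and 1 (all genes 24.9%) lower, with a median log2 ratio of 1.10. Endoderm and mesoderm markers summed to 30.5 CPM in ASO-L1 and 10.0 CPM in SO-L1, with 3 of 3 measured (all genes 22.9%) at least 1.5-fold higher. The part of these markers in the differences of the 7 genes was not tested.

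**Figure D2:**
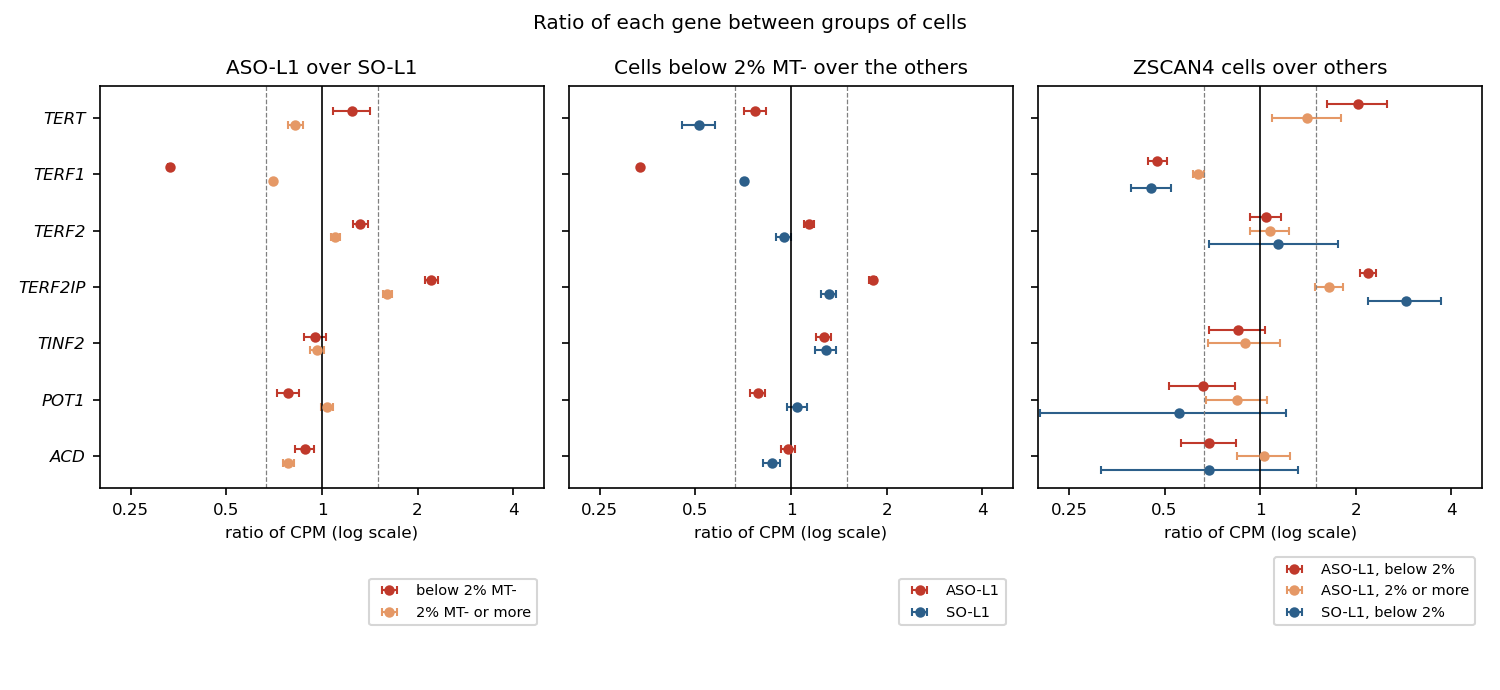
Ratio of CPM with its Clopper-Pearson 95% interval on a log axis, for ASO-L1 over SO-L1 by MT- class (left), cells below 2% MT- over the others by library (middle) and ZSCAN4 cells over the others of their class (right). Dashed lines stand at 1.5-fold either way. TERF1 lies left of 1 and TERF2IP right of 1 in every comparison drawn, and genes under the UMI minimum are left out.

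Along 5 bins of rising MT- share (below 0.5%, 0.5% to 2%, 2% to 5%, 5% to 8% and 8% to 20%), TERF1 in ASO-L1 stood at 225, 150, 356, 589 and 843 CPM. In SO-L1 TERF1 stood at 664, 593, 746, 894 and 947 CPM. It was lowest in both libraries in the bin of 0.5% to 2%, a bin of shallow cells with medians of 14096 UMIs in ASO-L1 and 10069 in SO-L1. TERF2IP was highest in that bin, at 74.3, 102, 63.7, 43.2 and 35.0 CPM along the bins in ASO-L1 and 33.0, 53.1, 31.7, 27.5 and 25.8 CPM in SO-L1. TERT ran from 6.59 CPM in the lowest to 9.80 CPM in the highest bin of ASO-L1, and from 5.22 to 10.8 CPM in SO-L1. With cells ranked by UMIs and cut into 3 equal groups, low to high, TERF1 stood at 452, 617 and 531 CPM in ASO-L1 and 767, 887 and 878 CPM in SO-L1. The 3 groups were cut within each library, with medians of 33897, 53959.5 and 75709.5 UMIs in ASO-L1 and 23199, 42314 and 58378 in SO-L1. TERF2IP stood at 67.9, 44.9 and 48.9 CPM in ASO-L1 and at 35.8, 28.6 and 25.8 CPM in SO-L1.

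**Figure D3:**
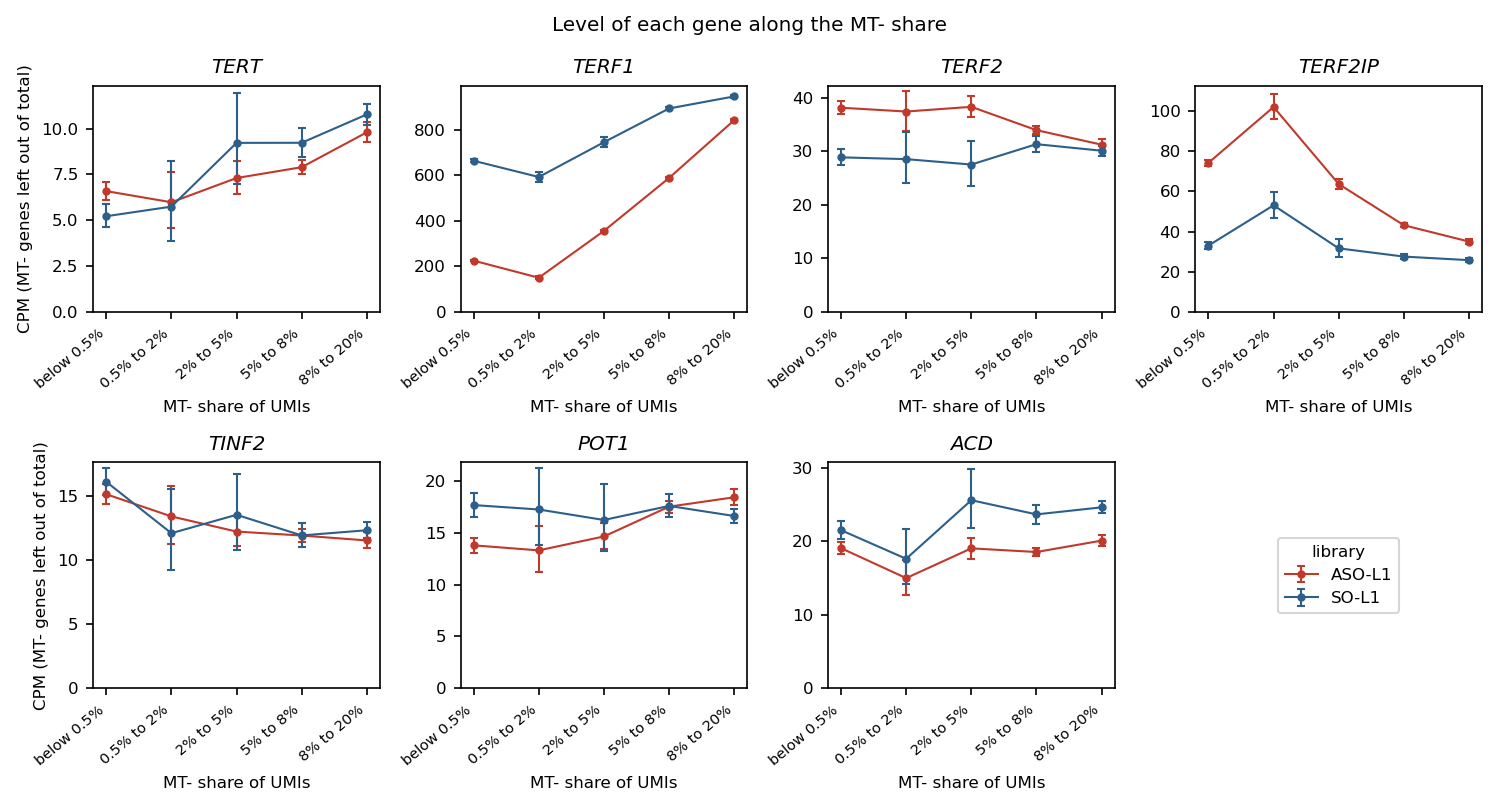
CPM of each gene in 5 bins of MT- share, low to high, for ASO-L1 (red) and SO-L1 (blue), with exact Poisson 95% intervals. TERF1 reaches 843 CPM in ASO-L1 and 947 CPM in SO-L1 in the highest bin, while TERF2IP peaks at 102 CPM in ASO-L1 and 53.1 CPM in SO-L1 in the bin of 0.5% to 2%.

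To set cells side by side at equal depth, each was thinned to 8000 UMIs, which left out 520 shallower cells in ASO-L1 and 649 in SO-L1. TERF1 then had no UMI in 57.1% of ASO-L1 cells and 9.85% of SO-L1 cells below 2% MT-, and in 13.7% of ASO-L1 and 0.805% of SO-L1 cells at 2% or more. Its median was 0 UMIs in ASO-L1 and 5 in SO-L1 below 2%, and 4 in ASO-L1 and 6 in SO-L1 at 2% or more. ASO-L1 cells below 2% still had a tail of high cells, 4.38% with 10 or more TERF1 UMIs, beside 12.5% in SO-L1. Without thinning, the shares with a TERF1 UMI in the same cells below 2% were 73.3% in ASO-L1 and 98% in SO-L1. Cells were not clustered, and no cell type that lacks TERF1 was looked for. In the barcodes under 1000 genes described above, TERF1 stood at 399 CPM in ASO-L1 and 745 CPM in SO-L1.

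**Figure D4:**
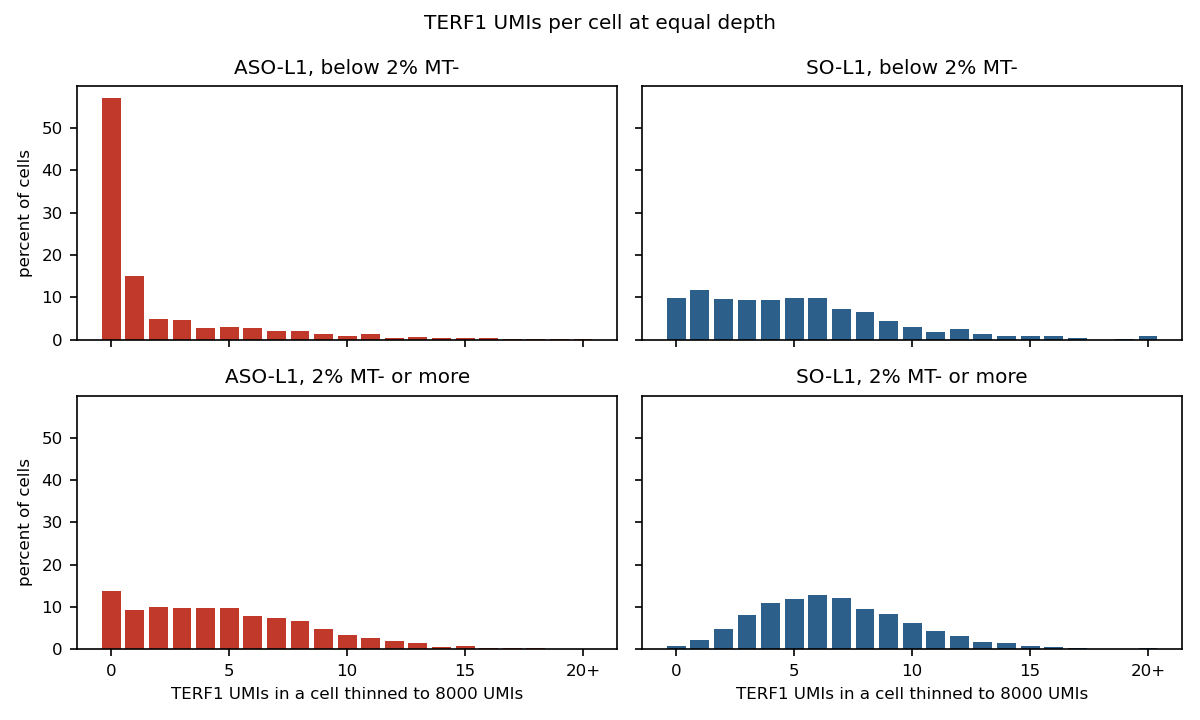
Share of cells by number of TERF1 UMIs after thinning each cell to 8000 UMIs, for ASO-L1 (left) and SO-L1 (right), below 2% MT- (top) and at 2% or more (bottom). The column at 0 holds 57.1% of ASO-L1 cells below 2% MT- and 9.85% of SO-L1 cells of that class.

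TERF2IP had a UMI at equal depth in 42.5% (40.4% to 44.5%) of ASO-L1 and 22.7% (20.7% to 24.9%) of SO-L1 cells below 2% MT-, and in 25.9% of ASO-L1 and 17.0% of SO-L1 cells at 2% or more. Unthinned, these shares were 85.6% in ASO-L1 and 63.9% in SO-L1 below 2%, and 81.2% in ASO-L1 and 64.4% in SO-L1 at 2% or more. TERT had one in 4.97% (4.10% to 5.95%) of ASO-L1 and 3.47% (2.62% to 4.51%) of SO-L1 cells below 2%, with unthinned shares of 20.4% in ASO-L1 and 15.8% in SO-L1. At 2% or more TERT had one in 5.48% of ASO-L1 and 6.99% of SO-L1 cells, and in 33.1% of ASO-L1 and 33.2% of SO-L1 cells unthinned. The other 4 genes lay between 7.84% for TINF2 in ASO-L1 at 2% or more and 26.7% for TERF2 in ASO-L1 below 2%, so most cells of either library carried none of their UMIs at this depth.

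Cells below 2% MT- in ASO-L1 were set apart by TERF1 UMIs at 8000 UMIs, as a description of a continuous range. Of 2235 such cells, 1277 had 0 TERF1 UMIs, 613 had 1 to 4 and 345 had 5 or more, and 15.1% had exactly 1 and so lay next to the first border. TERF2IP stood at 92.2, 66.4 and 37.7 CPM in these 3 ranges, lowest where TERF1 was highest. POT1 stood at 8.35, 18.3 and 24.5 CPM and so ran with TERF1. TERT hardly moved, at 6.39, 6.82 and 6.49 CPM. POU5F1, the core pluripotency factor, stood at 468, 692 and 997 CPM, and SOX2 at 61.0, 149 and 260 CPM. ZSCAN4 ran the other way, at 15.4, 3.79 and 0.499 CPM, as did KLF4 at 60.9, 38.0 and 13.9 CPM and DPPA3, a naive-state gene, at 127, 55.9 and 27.1 CPM. KLF17, another naive-state marker, stood at 7.69, 3.92 and 0.333 CPM (499, 118 and 6 UMIs). The remaining naive-state markers, DPPA5, KLF5 and DNMT3L, were not split by TERF1 UMIs. GATA3, a trophectoderm and amnion marker, stood at 1.32, 0.765 and 0.166 CPM (86, 23 and 3 UMIs), and its part in the TERF1 ranges was not tested. In SO-L1 cells below 2% the same ranges held 153, 620 and 781 cells, and TERF2IP stood at 53.5, 37.7 and 29.3 CPM. POT1 stood at 13.7, 16.8 and 18.2 CPM in these SO-L1 ranges. The genes named here other than the 7 and ZSCAN4 were picked with their values known.

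ZSCAN4 cells of ASO-L1 below 2% MT- had more TERF2IP and TERT and less TERF1 than the other cells of that class. TERF2IP held 155 CPM in the 165 ZSCAN4 cells and 70.8 CPM in the 2366 other cells, a ratio of 2.19 (2.06 to 2.32). TERT held 12.4 CPM (101 UMIs) in ZSCAN4 cells and 6.09 CPM in the others, a ratio of 2.03 (1.63 to 2.51), with at most 11 of its UMIs in 1 ZSCAN4 cell. TERF1 held 108 CPM in ZSCAN4 cells and 227 CPM in the others, a ratio of 0.475 (0.443 to 0.508), and 135 of its 880 UMIs in ZSCAN4 cells came from 1 cell. POT1 held 9.30 CPM (76 UMIs) in ZSCAN4 cells and 14.1 CPM in the others, a ratio of 0.660 (0.517 to 0.832). ACD (0.690), TINF2 (0.849) and TERF2 (1.04) were within 1.5-fold. For ACD 9 of 14 alternatives also were, and its ratio ran from 0.0543, with all barcodes present in both libraries left out, to 0.748. Thus 2 members were at least 1.5-fold higher, where 9.28% of 16708 genes were, and 2 lower, where 13.3% were. The median ratio of genes with at least 1000 UMIs was 0.923 here, −0.12 on the log2 scale. Relative to it the ratios were 2.37 for TERF2IP, 2.20 for TERT, 0.515 for TERF1 and 0.716 for POT1, the last no longer past 1.5-fold. Thinned to 8000 UMIs, POT1 stood at 0.977, and 10.5% of ZSCAN4 cells and 9.37% of the others had a POT1 UMI, so no direction is read for it. At that depth TERF2IP had a UMI in 62.1% of ZSCAN4 cells and 41.0% of the others, TERT in 9.80% of ZSCAN4 cells and 4.61% of the others, and TERF1 in 25.5% of ZSCAN4 cells and 44.1% of the others. The intervals of the TERT shares, 5.59% to 15.7% and 3.75% to 5.60%, just overlapped. Without thinning, TERF2IP had one in 89.5% of ZSCAN4 cells and 85.3% of the others, TERT in 28.8% of ZSCAN4 cells and 19.7% of the others, and TERF1 in 62.1% of ZSCAN4 cells and 74.1% of the others. With all barcodes present in both libraries left out, the ratio was 0.306 for TERF1 and 2.52 for TERF2IP.

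By number of ZSCAN4 UMIs in these ASO-L1 cells (0, 1, 2 to 4, and 5 or more, in 2366, 97, 22 and 46 cells), TERF2IP stood at 70.8, 96.2, 138 and 265 CPM. TERT stood at 6.09, 6.93, 12.2 and 21.9 CPM, the third on 14 UMIs. In the 97 cells with 1 ZSCAN4 UMI the TERT ratio to cells with 0 was 1.14 (0.767 to 1.63). Of the 101 TERT UMIs in ZSCAN4 cells, 56 came from the 46 cells with 5 or more. TERF1 stood at 227, 165, 31.5 and 41.4 CPM. The step from 1 to more UMIs was the largest for TERF1, and the intervals at 2 to 4 and at 5 or more overlapped. TERF2 stood at 38.0, 35.8, 38.5 and 46.5 CPM with overlapping neighbours. In the 46 cells with 5 or more, the ratio to cells with 0 was 3.75 (3.46 to 4.05) for TERF2IP, 3.59 (2.68 to 4.72) for TERT and 0.183 (0.149 to 0.221) for TERF1. In the same cells TINF2 was 0.568 times (22 UMIs), POT1 0.555 times (20 UMIs) and ACD 0.490 times (24 UMIs). Of 13087 genes measured for these 46 cells, 42.8% were at least 1.5-fold lower and 12.1% higher. The ratios of TINF2, POT1 and ACD stood at percentiles 34.2, 33.1 and 27.2 of those genes, within the broad lower part of all ratios, and those of TERF2IP, TERT and TERF1 at percentiles 98.6, 98.5 and 4.46.

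**Figure D5:**
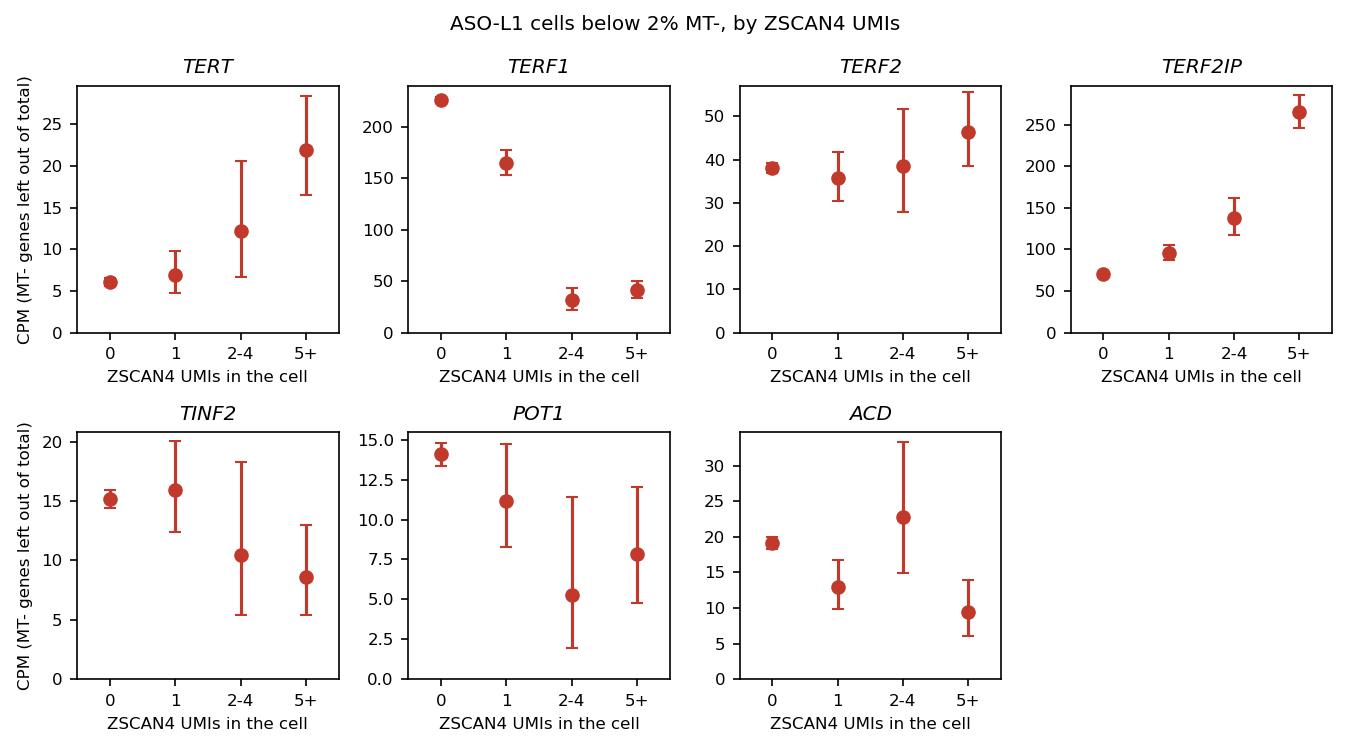
CPM of each gene in ASO-L1 cells below 2% MT- with 0, 1, 2 to 4 and 5 or more ZSCAN4 UMIs, with exact Poisson 95% intervals. TERF2IP stands at 70.8 CPM without ZSCAN4 UMIs and 265 CPM with 5 or more, TERT at 6.09 and 21.9 CPM, and TERF1 at 227 and 41.4 CPM.

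TERF2IP levels also differed with the homeobox genes inside its span. Among ASO-L1 ZSCAN4 cells below 2% MT-, TERF2IP held 289 CPM in the 52 cells with DUXB or CPHXL UMIs and 103 CPM in the 113 with neither. Among the other cells of that class it held 150 CPM in 126 cells with such UMIs and 66.9 CPM in 2240 with neither. In ASO-L1 cells at 2% or more it held 127 CPM in the 12 ZSCAN4 cells with such UMIs and 59.0 CPM in the 84 with neither, and in the other cells 73.5 CPM in 98 with such UMIs and 41.5 CPM in 6359 with neither. With all DUXB or CPHXL cells left out, the ZSCAN4 ratio of TERF2IP was 1.53 below 2% and 1.42 at 2% or more in ASO-L1, and its ratio of ASO-L1 over SO-L1 was 2.04 below 2% and 1.59 at 2% or more. The ZSCAN4 ratio of TERT was 1.58 and that of TERF1 0.593 below 2% without those cells. Whether reads of these genes were counted for TERF2IP was not tested.

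At 2% MT- or more in ASO-L1, the 96 ZSCAN4 cells, of which 85 had a single ZSCAN4 UMI, also had more TERF2IP and less TERF1 than the others. TERF2IP held 69.4 CPM in ZSCAN4 cells and 42.1 CPM in the others, a ratio of 1.65 (1.49 to 1.82). TERF1 held 417 CPM in ZSCAN4 cells and 654 CPM in the others, a ratio of 0.638 (0.612 to 0.664). TERT held 11.9 CPM (67 UMIs) in ZSCAN4 cells and 8.43 CPM in the others, a ratio of 1.41 (1.09 to 1.79). At equal depth, however, TERT had a UMI in 5.43% of ZSCAN4 cells (5 of 92) and 5.48% of the others. Unthinned, these TERT shares were 41.3% in ZSCAN4 cells and 32.9% in the others. No direction is therefore read for TERT in these cells. In this class 1 member was at least 1.5-fold higher, where 9.08% of genes were, and 1 lower, where 6.93% were.

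In SO-L1 below 2% MT-, TERF1 held 301 CPM in the 20 ZSCAN4 cells and 662 CPM in the 1837 others, a ratio of 0.454 (0.391 to 0.525). TERF2IP held 98.1 CPM (60 UMIs) in ZSCAN4 cells and 34.1 CPM in the others, a ratio of 2.88 (2.19 to 3.72). Of those 60 TERF2IP UMIs, 44 came from the 4 cells with DUXB or CPHXL UMIs, at 528 CPM, and the 16 cells with neither stood at 30.3 CPM, beside 33.9 CPM in other cells with neither. POT1 had 6 UMIs in the ZSCAN4 cells and a ratio of 0.554 (0.203 to 1.21). Of 5 members measured, 1 was at least 1.5-fold higher (9.14% of genes) and 2 lower (15.2%). TERT had 3 UMIs and TINF2 14 in these cells, under the minimum for a ratio. In the 8 SO-L1 ZSCAN4 cells at 2% or more, TERF1 held 836 CPM, beside 926 CPM in the others, TERF2IP had 18 UMIs and TERT 1, and no direction is read from them.

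In ASO-L1 below 2% MT-, the 8C list moved with ZSCAN4 as its choice implies, with 5 of 5 measured markers at least 1.5-fold higher in ZSCAN4 cells. The list summed to 1508 CPM in ZSCAN4 cells and 279 CPM in the others. Of all genes measured in this comparison, 9.28% were higher and 13.3% lower by that margin. Of the 7 pluripotency markers, 1 was at least 1.5-fold lower, at a summed 1353 CPM in ZSCAN4 cells and 1743 CPM in the others. Of 5 naive-state markers, 3 were higher and 1 lower, at a summed 806 CPM in ZSCAN4 cells and 242 CPM in the others. The part of these markers in the differences of the 7 genes was not tested. The cells had medians of 45347 UMIs in ZSCAN4 cells and 44561.5 in the others.

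The other telomere genes came from 7 lists. Of 14 measured genes of the telomerase particle, 5 (all genes 22.9%) were at least 1.5-fold higher and 2 (all genes 24.9%) lower in ASO-L1 than in SO-L1 below 2% MT-, with a median log2 ratio of 0.14, beside −0.01 for all genes. TERC, the template RNA, had 18 UMIs in ASO-L1 and 4 in SO-L1 there and was under the minimum for a ratio. NOP10, a core protein of the particle, held 261 CPM in ASO-L1 and 148 CPM in SO-L1, a ratio of 1.76, and stood at 1.77 at 2% or more. TEP1, a telomerase-associated protein, stood at 2.13. PINX1, a telomerase inhibitor, held 12.8 CPM in ASO-L1 and 54.5 CPM in SO-L1, a ratio of 0.235 (0.221 to 0.25), and 0.476 at 2% or more. NHP2, another core protein, stood at 0.990 below 2% and 0.758 at 2% or more. In ASO-L1 ZSCAN4 cells below 2%, 3 of 14 were at least 1.5-fold higher (all genes 9.28%) and none lower (all genes 13.3%). These were NAF1, an assembly factor, at 2.01-fold (1.81 to 2.22), NHP2 at 1.58-fold (1.52 to 1.65) and TGS1, which caps the RNA, at 1.55-fold (1.47 to 1.63).

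Of the 7 genes of CST and DNA polymerase alpha-primase, which fill in the complementary strand, none (all genes 22.9%) was at least 1.5-fold higher and 3 (all genes 24.9%) were lower in ASO-L1 below 2% MT-. POLA2 held 12.4 CPM in ASO-L1 and 39.9 CPM in SO-L1, a ratio of 0.310, and stood at 0.347 at 2% or more. PRIM2 (0.537) and POLA1 (0.539) were the other 2. Of 17 genes of end processing, 3 were higher and 5 lower below 2%, beside 22.9% and 24.9% of all genes, so both counts lay near the background. DCLRE1B (Apollo), the nuclease that TERF2 brings to the end, stood at 2.34. TNKS (tankyrase), which removes TERF1 from telomeres, held 35.1 CPM in ASO-L1 and 89.1 CPM in SO-L1, a ratio of 0.394, and RAD50 stood at 0.441. XRCC6 and XRCC5, the Ku subunits with most UMIs, stood at 1.15 and 0.588. At 2% or more the ratios were 2.08 for DCLRE1B, 0.637 for TNKS and 0.638 for RAD50.

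Of 12 telomere chromatin genes, 4 were higher (all genes 22.9%) and 1 lower (all genes 24.9%) in ASO-L1 below 2% MT-, and none was past 1.5-fold at 2% or more. DAXX, the histone H3.3 chaperone, held 219 CPM in ASO-L1 and 59.0 CPM in SO-L1 below 2%, a ratio of 3.71 (3.58 to 3.85). H3-3B stood at 1.90 and H3-3A at 0.772. In ASO-L1 ZSCAN4 cells below 2%, ZBTB10, a telomere-binding zinc finger protein, was the 1 gene of this list past 1.5-fold, at 2.21-fold. In the 20 SO-L1 ZSCAN4 cells below 2%, ZBTB10 stood at 2.23 on 28 UMIs and DAXX at 1.62 on 58. Of 16 damage and recombination genes, 2 were higher and 3 lower below 2%, in both directions no more than the 22.9% and 24.9% of all genes, among them SHLD3 at 2.10, MAD2L2 at 0.484 and ATM at 0.526. Of 10 measured genes of meiotic telomeres and recombination, none was higher (all genes 22.9%) and 4 were lower (all genes 24.9%), with STAG3 at 0.469, SYCP3 at 0.571 and SYCP1 at 0.585. In ASO-L1 ZSCAN4 cells SYCP1 was 3.82-fold higher on 66 UMIs, and STAG3 1.88-fold on 69.

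Of 10 genes known to regulate TERT, 4 were higher (all genes 22.9%) and 1 lower (all genes 24.9%) in ASO-L1 below 2% MT-. MYC, an activator of TERT, held 38.5 CPM in ASO-L1 and 4.52 CPM in SO-L1, a ratio of 8.52 (7.53 to 9.68). KLF4 stood at 4.90 and MXD1, a MYC antagonist, at 3.24. At 2% or more the ratios were 3.22 for MYC, 3.19 for KLF4 and 1.78 for MXD1. MYC was 2.58-fold (2.38 to 2.79) and MYCN 1.88-fold higher in ASO-L1 ZSCAN4 cells below 2%. CTCF, with most UMIs of the list, stood at 1.02 in those cells.

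Likeness of pattern was measured as the Pearson correlation of log2(CPM + 1) over 30 groups of cells, which share their libraries and differ in depth, among 10606 genes with at least 5000 UMIs. TERF1 was most like HMGN3 (0.986), STRBP (0.983) and TMEM256 (0.982). TERF2IP was most like FAM53C (0.968), SNHG11 (0.965) and FGFR1OP2 (0.961). TERT was most like GMNN (0.824), PRELID1 and LDHA (both 0.821), and TERF2 like ZNF724 (0.875), UBAP2L and ZNF773. TINF2 was most like CLCC1 (0.857), POT1 like POLI (0.818) and ACD like BLMH (0.896). Between members, TERF1 and TERF2IP had a correlation of −0.92, TERF1 and ACD of 0.71, and TERT and TERF1 of 0.47. POT1 and TINF2 had one of −0.49. These are descriptions of 30 groups from 2 libraries. The groups held from 10 to 1365 cells and counted equally. The part of counting error in the correlations of sparse genes such as TERT was not tested.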

How the data were processed

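Per the submitters' processing notes, the authors made UMI counts per gene and barcode with Cell Ranger 7.1.0 on hg38, and the deposited files hold these raw counts. The labels state neither the annotation release nor the settings for cell calling, strand and introns. The 7 genes and all lists were chosen with earlier results of these data known.

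From the counts, UMIs were summed over the cells of a group and divided by the group's total to give CPM, with MT- genes in the total for all kept cells and out of it elsewhere. A ratio of 2 groups has an exact conditional binomial (Clopper-Pearson) interval. A gene counted as measured with at least 100 UMIs over both groups and 10 expected in the smaller one, and as higher or lower from 1.5-fold. Groups under 20 ZSCAN4 cells were described only. Cells were thinned without replacement to 8000 UMIs for shares. No doublet caller was run, and doublets were not removed. With 1 library per group, no p-value was computed. UMIs were treated as independent, so the spread between cells is outside the intervals. Named genes were the 7, ZSCAN4 and, per list and comparison, the 3 measured genes with the largest ratio past 1.5-fold and the 2 with most UMIs, of which a selection is given, plus the 3 genes most like each member. Of 155 listed genes, 153 matched by symbol and 2 by identifier. The ratio and its interval were tried on simulated independent Poisson counts. These follow the model behind the interval, so that trial checks the computation only. Depth per library was 499106701 UMIs in ASO-L1 and 273349662 in SO-L1 over kept cells. Alternatives changed the cell filter, total, scaling, weighting, depth, class border, ZSCAN4 minimum, barcodes and fold. Python 3.11.15, numpy 2.4.6, scipy 1.17.1, pandas 2.3.3 and matplotlib 3.10.9 were used.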

Additional observations from a re-analysis of the deposited data

Results flagged for a closer look

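TERT moved in opposite directions between the libraries in the 2 MT- classes, with neither interval reaching 1. Its ratio of ASO-L1 over SO-L1 was 1.24 (1.09 to 1.42) below 2% MT-, on 747 and 311 UMIs, and 0.824 (0.779 to 0.873) at 2% or more, on 3018 and 2002 UMIs. The difference between the classes was not tested, since each class of a library is 1 sample. Over the 13 alternatives run for each, the ratio ran from 1.05 to 1.5 below 2% and from 0.686 to 0.856 at 2% or more.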

How the results depend on the processing

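No paired analysis was possible because each group is 1 library and no result comes from a test. Of 17 ratios past 1.5-fold, none turned its direction in any of 192 values under the alternatives. Alternatives that left a gene under the UMI minimum, or too few ZSCAN4 cells, gave no value. In ASO-L1 ZSCAN4 cells below 2%, TERT thus had 12 values, beside 14 for TERF1. In SO-L1 ZSCAN4 cells, TERF1 and TERF2IP had 5 and POT1 had 4. Of 220 counts of members past 1.5-fold recomputed, 195 stayed within 1.5 times. Against a 2-fold border, the counts higher fell to 0 for all kept cells, cells at 2% or more, the MT- classes of ASO-L1 and ZSCAN4 cells at 2% or more in ASO-L1. The counts lower fell to 0 for all kept cells, the MT- classes of SO-L1 and ZSCAN4 cells at 2% or more in ASO-L1, and to 1 for ZSCAN4 cells below 2% in ASO-L1 and in SO-L1. Scaled to the median ratio, 1 member was lower in ZSCAN4 cells below 2% in ASO-L1. Thinning to 8000 UMIs gave 2 members higher between the libraries below 2%, and in ASO-L1 1 higher in ZSCAN4 cells below 2% and 2 lower in those at 2% or more. The call lost there was that of TERT, which came under the UMI minimum, at 0.131 UMIs per ZSCAN4 cell and 0.0485 per other cell. A class border at 3%, or leaving out cells between 1% and 3%, gave 2 higher and 0 lower in ASO-L1 ZSCAN4 cells at 2% or more. At 5 or more ZSCAN4 UMIs, 4 were lower in ASO-L1 below 2%, where 42.8% of all genes were. Leaving out barcodes present in both libraries, which removes 58.4% of kept ASO-L1 cells and 16.2% of SO-L1 cells, gave 2 lower between the libraries below 2% and 1 at 2% or more, and in ASO-L1 ZSCAN4 cells 1 higher below 2% and 2 higher at 2% or more. Without cells holding DUXB or CPHXL UMIs, an alternative chosen after seeing the data, 1 was lower in ASO-L1 ZSCAN4 cells below 2%, and 0 higher and 0 lower at 2% or more. Unless stated above, the cause was not tested.

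For the ZSCAN4 comparison in SO-L1 no value was computed under the stricter filter, thinning (18 ZSCAN4 cells), the 1% border, the cells between 1% and 3% left out, 2 or 5 ZSCAN4 UMIs, either barcode alternative or without DUXB or CPHXL cells, since 2 to 19 ZSCAN4 cells were left. The same holds for ASO-L1 at 2% or more with 2 or 5 ZSCAN4 UMIs, on 11 and 4 cells. Without all barcodes present in both libraries, the ratio of ASO-L1 over SO-L1 below 2% was 0.252 for TERF1 and 3.05 for TERF2IP, and the ZSCAN4 ratio in ASO-L1 below 2% was 0.306 for TERF1 and 2.52 for TERF2IP. Depth limits TERT, TINF2, POT1 and ACD most.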
